A study of Rattus norvegicus with 6 samples.

Results

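The small leucine-rich proteoglycans are secreted matrix proteins built around a bow-shaped stack of leucine-rich repeats, and many carry chondroitin, dermatan or keratan sulfate chains. They sit on the surface of collagen fibrils, set fibril diameter and spacing, and hold growth factors such as TGF-beta in the matrix. In skin, decorin is the family member best known from dermal fibroblasts, and loss of decorin gives fragile skin with irregular fibrils. The 7 genes described here are Dcn, Bgn, Lum, Fmod, Ogn, Prelp and Aspn, chosen by name. All array probes whose RefSeq accession maps to one of them were taken, which gave 8 of the 30367 gene probes (2 for Bgn and 1 for each other gene), among 15168 named genes on the array. For a test, the scanner software had to flag the probe as well above background on every array of a group, control or knockdown. Of the 7 genes, 5 were tested, on 6 probes, and Dcn and Lum were not.

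The cells were rat dermal fibroblasts. In the control group (n = 3) they carried a control lentivirus and in the knockdown group (n = 3) a lentivirus coding for an shRNA, a hairpin transcript that triggers RNA interference, directed at lnc-URIDS, a long non-coding RNA. Each virus was used at an MOI (infectious particles per cell) of 10. Cells were selected with puromycin, an antibiotic to which the virus gives resistance, at 2 µg/mL, and 48 h is the time the labels give. Total RNA of each sample was read on 1 one-colour Agilent array. The labels give no strain, age or donor and do not say that samples came from separate cultures, so a p-value here reflects only how far these 6 samples scatter, and that scatter may be technical. No probe used here carries the name lnc-URIDS, so the knockdown itself was not checked.

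Across the 6 arrays, 20898 to 22489 gene probes were well above background, processed signals had 75th percentiles of 1493 to 1609, and 0 gene spots were saturated. With 6 arrays, their number limits the precision. Slide 1 of 2 held controls 1 and 2 with knockdown 2 and 3, and slide 2 held the remaining pair, control 3 with knockdown 1. Of 12 fibroblast markers 11 had a probe, and all 11 were well above background on every array, among them Col1a1, Pdgfra, Thy1 and Vim. Their summed level, the log2 of summed signals, was 8.83 to 8.95 in controls and 8.86 to 8.89 in knockdown, set mostly by the collagen genes. At an unadjusted limma p of 0.05, 4 of the 11 were lower in knockdown (log2 fold changes: Prrx1 -0.70, Pdgfra -0.51, Twist2 -0.24 and Vim -0.11, all on groups that did not overlap) and Fap was higher (0.23), against 14.2% of all features, with 0 past the adjusted threshold. Across all features, 21.7% had groups that did not overlap, 11.8% lower in knockdown. In bulk RNA fewer cells of a type and less RNA per cell cannot be told apart. Ptprc, the pan-leukocyte phosphatase, Pecam1 of endothelium, Epcam and Cdh1 of epithelium, and Adipoq of adipocytes were well above background on 0 of 6 arrays. Other genes of those lists were well above background, for example the keratins Krt5 and Krt14 and the macrophage receptor gene Csf1r on all 6. Of 6 mural cell markers, Rgs5 was so on 0 arrays and 5 on all 6, with a summed level of 3.13 to 3.21 in controls and 3.28 to 3.54 in knockdown. Among these 5, Mcam was higher (0.77) and Abcc9 (-1.14) and Kcnj8 (-1.32) lower at the unadjusted threshold. The sum was set mostly by Cspg4 (fold 0.15) and Mcam. By mean, 2 of the 5 were higher and 3 lower, with Notch3 at -0.08, so the higher sum does not describe the list. The part of the fibroblast and mural markers in the members' values was not tested. Values below are log2 processed signals relative to the array's own 75th percentile. Folds are knockdown minus control on that log2 scale.

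Upstream sequence is shown for the members with a RefSeq entry that the results turn on: Lum, which read at background, and Fmod, Ogn and Aspn, which did not. Such an entry was found for 4 of the 7 members. Each sequence is the 250 bases before the annotated start, 5′ to 3′ on the gene's own strand, from RefSeq on build GRCr8. Capitals mark matches on either strand to TATAAA, the core of a TATA box, or to CAGAC, a short element bound by the SMAD proteins of TGF-beta signalling.
Lum chr7:34245456-34245705 (plus strand): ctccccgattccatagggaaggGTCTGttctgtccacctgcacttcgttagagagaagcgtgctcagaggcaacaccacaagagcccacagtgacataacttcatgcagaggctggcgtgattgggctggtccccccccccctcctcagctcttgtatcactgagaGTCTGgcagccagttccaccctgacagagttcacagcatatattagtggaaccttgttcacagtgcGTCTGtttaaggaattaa
Fmod chr13:48045317-48045566 (plus strand): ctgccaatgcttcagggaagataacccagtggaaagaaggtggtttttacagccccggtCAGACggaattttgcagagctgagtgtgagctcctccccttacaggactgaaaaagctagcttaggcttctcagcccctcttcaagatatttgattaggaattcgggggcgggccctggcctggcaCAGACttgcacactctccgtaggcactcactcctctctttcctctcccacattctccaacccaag
Ogn chr17:15258996-15259245 (minus strand): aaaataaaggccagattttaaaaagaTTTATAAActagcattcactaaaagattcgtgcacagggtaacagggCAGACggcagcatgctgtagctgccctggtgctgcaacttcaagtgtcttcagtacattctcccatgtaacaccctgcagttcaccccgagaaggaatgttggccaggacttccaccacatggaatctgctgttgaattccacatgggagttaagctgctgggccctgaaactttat
Aspn chr17:15310470-15310719 (minus strand): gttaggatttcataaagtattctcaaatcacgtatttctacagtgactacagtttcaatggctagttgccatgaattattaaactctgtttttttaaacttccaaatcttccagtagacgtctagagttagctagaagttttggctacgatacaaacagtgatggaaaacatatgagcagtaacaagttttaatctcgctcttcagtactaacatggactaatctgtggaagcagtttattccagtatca
The Lum window held 3 CAGAC matches and 0 of TATAAA, and that of Fmod 2 and 0. Ogn had 1 CAGAC match and 2 of TATAAA, which overlap each other on opposite strands, and Aspn had 0 of both. Among 33469 RefSeq windows of the same length, 42.9% held CAGAC and 12.9% held TATAAA. A match is a description of letters, not a bound site.

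Decorin and lumican, both widely used as fibroblast products, gave no signal well above background in either group. The Dcn probe was printed 10 times on each array. Of these 60 spots, 6 were outlier spots and were left out, and the 3 spots that had been called well above background were among those 6. The median raw Dcn spot signal was 28.5, 28.0 and 34.0 units in controls 1 to 3, and 34.0, 28.25 and 29.0 units in knockdown 1 to 3, next to a local background of 21.0 to 26.5 units. The Lum probe gave 27.0, 28.0 and 31.0 units in the controls and 33.0, 26.0 and 26.0 units in the knockdown arrays, next to 19.0 to 27.0 units of local background. The array's negative control spots had medians of 26.0 to 31.5 units, so the raw signals of both genes lay close to those of spots without a target. No fold is given for them. Each value is a bound on what 1 probe sequence detected, and a second probe of either gene was not analysed here.

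Dcn and Lum are next to each other in the GRCr8 gene order on chromosome 7, followed by Kera and Epyc, which encode the family members keratocan of cornea and epiphycan of growth plate cartilage. Kera was also well above background on 0 of 6 arrays. Epyc was well above background on all 6, at -3.01, -2.77 and -3.05 in controls 1 to 3 and -3.06, -3.55 and -3.18 in knockdown 1 to 3. All 3 knockdown arrays were lower than every control, by a narrow margin for knockdown 1. For Epyc the fold was -0.32 ± 0.15 (SE, n = 3 per group; limma adjusted p = 0.404), with -0.17 without knockdown 2, -0.47 within slide 1 and -0.01 within slide 2.

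**Figure D1:**
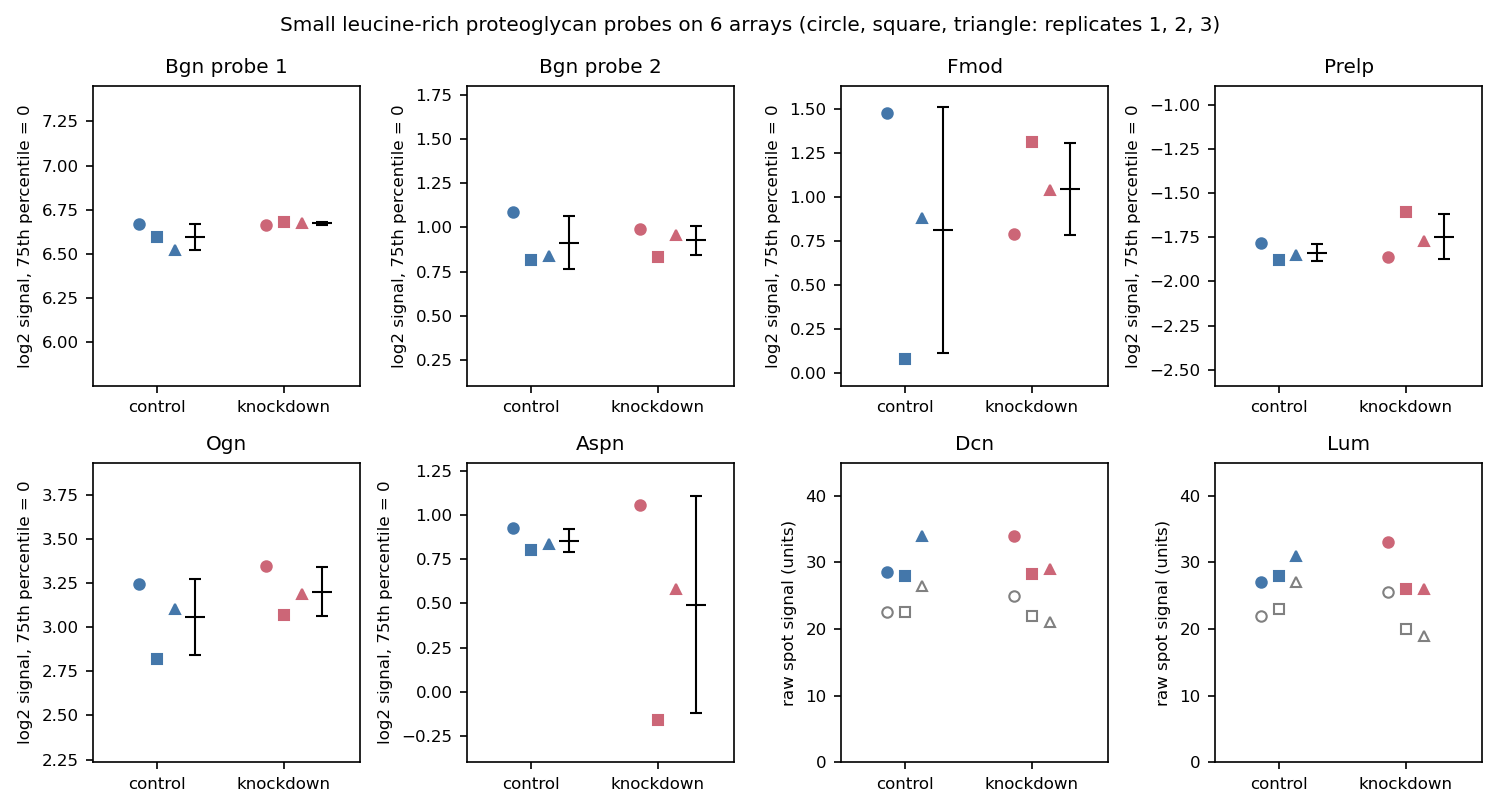
Signal of each probe on the 6 arrays, controls in blue and knockdown in red, with mean and SD beside the points of the 6 tested probes. The vertical axis is the log2 processed signal relative to the array's 75th percentile, over the same span in each of the 6 tested probes, or, for Dcn and Lum, the raw spot signal in units with the local background as open grey symbols. Fmod is spread from 0.08 to 1.48 over the controls and Aspn from -0.16 to 1.06 over the knockdown arrays, while Dcn and Lum lie at 26.0 to 34.0 units.

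No member passed the limma test at a Benjamini-Hochberg adjusted p of 0.05. Over all 18461 features (genes or unnamed transcripts, each read by its brightest tested probe), percent called was 0% as well. At an unadjusted p of 0.05 the members called were also 0 of 5, against 14.2% of all features. Control and knockdown arrays overlapped in all 5 tested members, while 21.7% of all features had groups that did not overlap (9.93% higher and 11.8% lower in knockdown). Means were higher in knockdown for 4 members and lower for Aspn, with a median of 0.09 against -0.01 over all features. Higher means made up 47.2% of all features. Adjusted p-values given below for the members run over all 20773 tested probes.

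Biglycan, encoded by Bgn, is the closest relative of decorin and, like it, carries chondroitin or dermatan sulfate. Its brighter probe had processed signals of 151962, 155403 and 145409 units in controls 1 to 3 and 152910, 155045 and 154420 units in knockdown 1 to 3. On the relative log2 scale the control arrays were at 6.67, 6.59 and 6.52, and the knockdown arrays at 6.66, 6.68 and 6.68. The knockdown arrays agreed to within 0.02, and control 1 lay among them. The fold was 0.08 ± 0.05 (SE, n = 3 per group; adjusted p = 0.561), and its 95% interval ran from 0.966-fold to 1.15-fold. The second Bgn probe, which targets the same transcript, gave 1.09, 0.82 and 0.84 on the control arrays, and 0.99, 0.83 and 0.96 on the knockdown arrays. Its groups overlapped fully, with a fold of 0.01 ± 0.09 (adjusted p = 0.971) and an interval of 0.866-fold to 1.18-fold. The interval of the brighter Bgn probe was the narrowest of the 6 tested member probes. When arrays were weighted by their scatter around the group means, that probe passed (0.13, limma adjusted p = 0.0442). Control 3 and knockdown 3, on different slides, had weights of 3.08 and 5.89, and the other arrays 0.40 to 0.81. The weighted fold thus rested mostly on control 3 and knockdown 3. Array weights called 23.0% of all features, 9.09% as higher. The adjusted p of the brighter Bgn probe ran from 0.0442 to 0.858 over the alternatives that give one, which leaves out slide 2 alone.

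Asporin, encoded by Aspn, resembles biglycan and decorin but has an aspartate stretch at its start in place of the chain attachment sites, and it binds TGF-beta and collagen. It read 0.93, 0.80 and 0.84 in controls 1 to 3, and 1.06, -0.16 and 0.58 in knockdown 1 to 3. The controls were within 1.09-fold of each other. The knockdown arrays spanned 2.34-fold, with knockdown 2 lowest, knockdown 3 next and knockdown 1 above every control. A narrower knockdown range was seen in 98.6% of features. The fold was -0.36 ± 0.30 (SE, n = 3 per group; adjusted p = 0.655), with an interval from 0.465-fold to 1.30-fold. Without knockdown 2 the fold was -0.04, and without knockdown 1 it was -0.65. Within slide 1 it was -0.66 and within slide 2, which has 1 array per group, 0.22.

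Fibromodulin, encoded by Fmod, carries keratan sulfate and guides collagen crosslinking in tendon and skin. It read 1.48, 0.08 and 0.88 in controls 1 to 3, and 0.79, 1.31 and 1.04 in knockdown 1 to 3. All knockdown arrays fell inside the range of the controls, which spanned 2.62-fold, with control 2 lowest. The control range of 98.9% of features was narrower. The fold was 0.23 ± 0.36 (SE, n = 3 per group; adjusted p = 0.845), with an interval from 0.636-fold to 2.18-fold. Its direction rested on control 2, since the fold without that array was -0.13, and it was 0.56 without control 1. Within slide 1 it was 0.39 and within slide 2 -0.09.

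Prelp encodes a heparin-binding member that links basement membrane to collagen, and it is adjacent to Fmod in the gene order on chromosome 13. It read -1.78, -1.88 and -1.85 in controls 1 to 3, and -1.86, -1.61 and -1.77 in knockdown 1 to 3. Knockdown 2 and 3 were above every control, knockdown 3 by a small margin, and knockdown 1 lay among the controls. The fold was 0.09 ± 0.08 (SE, n = 3 per group; adjusted p = 0.660), with an interval from 0.936-fold to 1.21-fold. Without knockdown 2 it was 0.02, and within slides 1 and 2 it was 0.14 and -0.01.

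Ogn encodes osteoglycin, also called mimecan, a short family member that affects fibril thickness. It read 3.24, 2.82 and 3.11 in controls 1 to 3, and 3.35, 3.07 and 3.19 in knockdown 1 to 3. Control 2 was the lowest array and knockdown 1 the highest, and the groups overlapped. The fold was 0.14 ± 0.13 (SE, n = 3 per group; adjusted p = 0.691), with an interval from 0.886-fold to 1.38-fold. Without control 2 it was 0.03. The Ogn sign was positive in all 18 alternatives, from 0.03 to 0.24.

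**Figure D2:**
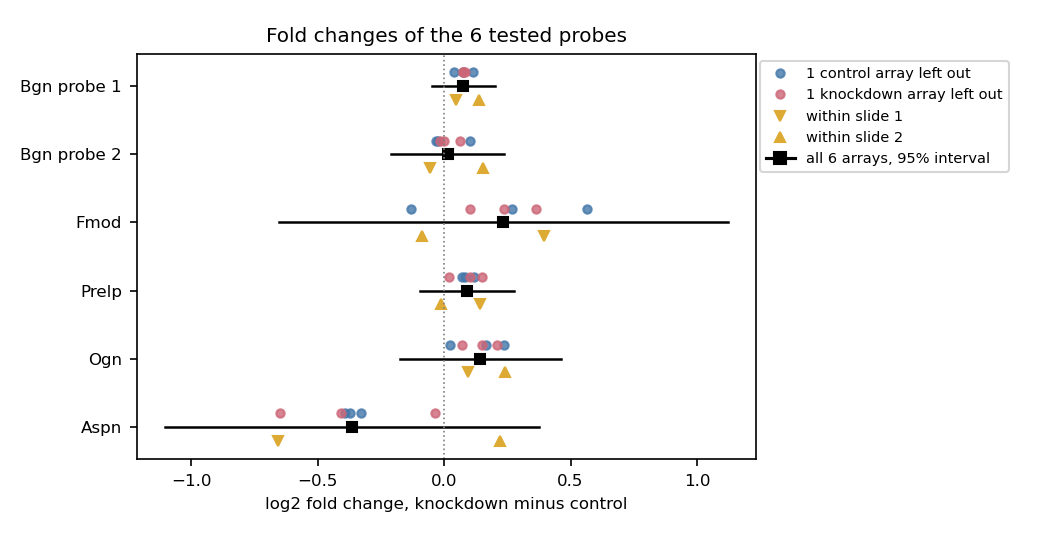
Log2 fold change, knockdown minus control, of the 6 tested probes, with black squares and lines for the value and 95% interval over 6 arrays. Coloured circles leave out 1 array each and triangles are values within a slide. Every interval includes 0, the interval of Bgn probe 1 is the narrowest, and values lie on both sides of 0 for Bgn probe 2, Fmod, Prelp and Aspn.

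Of the 5 tested members, 1 (Fmod) changed sign when an array was left out, on the brightest probe, against 39.2% of all features in which at least 1 such fit changed sign. The slides gave opposite signs in 3 members (Fmod, Prelp and Aspn), against 34.2% of all features. The shape over the arrays differed between members. Fmod and Ogn were both lowest in control 2, at -0.85 and -0.31 from their own means, where Aspn stood at 0.13. In knockdown 2 Aspn was at -0.84 from its mean, Fmod at 0.38 and Ogn at -0.06.

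Aspn and Ogn belong to a run of neighbouring genes on chromosome 17, in the order Ogn, Omd, Aspn, and Omd encodes osteomodulin, a keratan sulfate member of bone. Omd read -2.01, -2.07 and -2.12 in controls 1 to 3, and -2.06, -2.75 and -2.42 in knockdown 1 to 3. As for Aspn, knockdown 2 was lowest and knockdown 3 next. Knockdown 1 lay among the controls for Omd and above them for Aspn. The Omd fold was -0.35 ± 0.17 (SE, n = 3 per group; limma adjusted p = 0.436), with -0.17 without knockdown 2, -0.55 within slide 1 and 0.06 within slide 2. Likeness of shape was measured as the root mean square distance between log2 profiles over the 6 arrays, each centred on its own mean. Among 10750 other named genes, Omd was 7th nearest to Aspn by this distance, at 0.16, and Ogn was 3815th, at 0.39. Epyc, a family member on chromosome 7 and so outside this run, was 98th, at 0.24. It was also lowest in knockdown 2, at -0.44 from its mean. The pair of Aspn and Omd was picked after the values had been seen, and the cause of the low values in knockdown 2 was not tested.

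Fmod had the widest range of the members over the 6 arrays, and the 3 named genes nearest to it were Rasl12, a Ras-like small GTPase gene, Hal, the histidine ammonia-lyase gene, and Large2, a glycosyltransferase gene. Their distances were 0.17, 0.17 and 0.18 on the log2 scale. All 3 had a low value in control 2, at -0.59, -0.56 and -0.60 from their means. They were chosen for likeness to Fmod on the same arrays, so this low value follows from the choice. All 3 were dim, with control means of -4.07, -4.82 and -4.53 against 0.81 for Fmod. Their folds were 0.28 ± 0.23, 0.22 ± 0.22 and 0.26 ± 0.33 (SE, n = 3 per group), with limma adjusted p of 0.660, 0.742 and 0.816. Without control 2 the folds were 0.06, -0.002 and 0.02, and Large2 was at -0.13 within slide 2. The other tested members were farther from Fmod: Ogn at 0.36, Prelp at 0.39, Bgn at 0.42 and Aspn at 0.69.

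Some markers of tendon, bone and cartilage were also at an extreme in control 2, the array where Fmod was lowest. Not all members of a list were, nor in 1 direction. Control 2 was an extreme for other lists too. Among fibroblast markers Prrx1 (1.69) and Pdgfra (1.64) were highest there and Fap (-2.81) lowest, and the mural marker Kcnj8 (-2.91) was highest. The share of all features with an extreme in control 2 was not counted. Of the 2 measured tenocyte markers (of 4 listed), Scx, the tendon transcription factor gene, was well above background on all 6 arrays and Tnmd, the tenomodulin gene, on 5. In control 2 Tnmd was at -1.66 from its mean and Scx at -0.43, each the lowest of its 6 arrays. The level of Scx, the 1 marker that could be summed, was 2.02 to 2.40 in controls and 2.67 to 2.75 in knockdown. Scx had 0.49 ± 0.10 (n = 3 per group, SE; limma adjusted p = 0.196). Tnmd had 1.06 ± 0.51 (limma adjusted p = 0.424), and 0.50 without control 2. With a normexp background the Tnmd fold was 0.55, and 0.27 with quantile scaling added. Tnmd was dim, at -7.62 in control 2, and well above background on 2 of 3 controls. It entered the test only through the knockdown group, by a filter that favours higher knockdown values. Of 5 osteoblast markers 4 were measured, all well above background on every array. Their summed level was -2.44 to -1.60 in controls, with control 2 highest, and -2.55 to -2.35 in knockdown. Alpl, the alkaline phosphatase gene, and Ibsp, the bone sialoprotein gene, stood 0.77 and 1.16 above their means in control 2. Bglap, the osteocalcin gene, was lowest there, at -5.96, and Sp7, the osterix gene, was lowest in knockdown 2, at -4.79 against -4.78 in control 2. Alpl and Ibsp had folds of -0.55 ± 0.26 and -0.86 ± 0.42 (SE, n = 3 per group; limma adjusted p = 0.415 and 0.431). Without control 2 these were -0.31 and -0.50, and with a normexp background -0.28 and -0.08. Of 5 chondrocyte markers 3 were measured, all well above background on every array, with a summed level of 1.80 to 2.15 in controls, highest in control 2, and 1.21 to 1.62 in knockdown. Acan, the aggrecan gene, carried that sum, at 1.68 to 2.09 in controls, and had -0.64 ± 0.15 (limma adjusted p = 0.205). The other measured markers were lowest in control 2: Col2a1 at -4.02, with a fold of -0.02 ± 0.15, and Comp at -2.84, with a fold of 0.26 ± 0.15 (limma adjusted p = 0.977 and 0.524). The part of these cell states in the Fmod values was not tested.

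**Figure D3:**
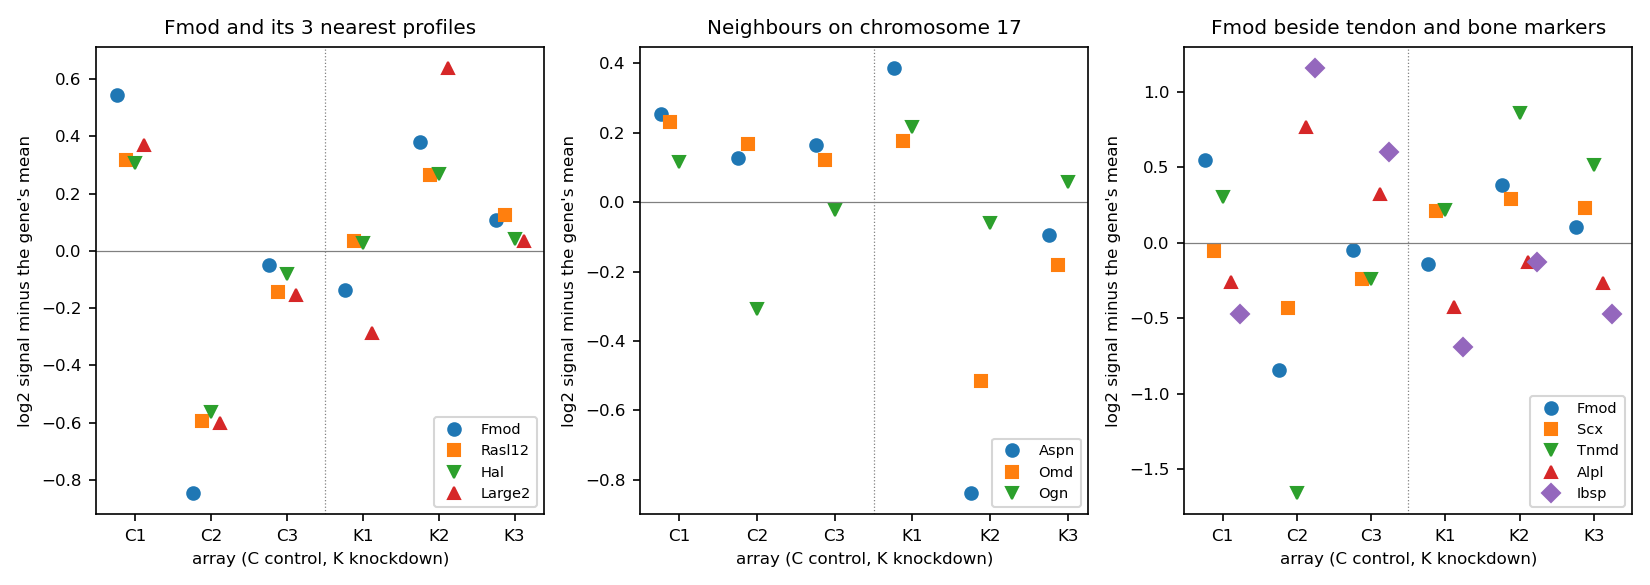
Log2 signal minus the gene's mean over 6 arrays (vertical axis) on each control (C) and knockdown (K) array (horizontal axis), for Fmod with its nearest profiles, for Aspn with its neighbours, and for Fmod with Scx, Tnmd, Alpl and Ibsp. Fmod stands at -0.85 in control 2 and Aspn at -0.84 in knockdown 2, where Omd is at -0.52 and Ogn at -0.06, and Alpl and Ibsp have their highest values in control 2.

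Genes that build, supply, bind or cut these proteoglycans were followed as 7 lists. None of the lists had a member past the adjusted threshold. The count at an unadjusted p of 0.05 is given against 14.2% of all features, of which 5.91% were higher and 8.26% lower, and medians against -0.01 over all features. Adjusted p-values here run over 18461 features.

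Of the 11 other small leucine-rich repeat genes, 6 had a probe and 5 were tested, with 2 higher, 3 lower and 0 at the unadjusted threshold (median -0.03). The smallest p was that of Tsku, which encodes the Wnt and BMP regulator tsukushi, at 0.13 ± 0.05 (SE, n = 3 per group; limma adjusted p = 0.354). The Tsku groups did not overlap, and Epyc, described above, had the next smallest p. Chad, the chondroadherin gene, had the widest fold at 0.94 ± 0.77 (limma adjusted p = 0.665), but this came from knockdown 3, at -3.32 against -6.25 to -5.90 on the other 5 arrays, and without it the fold was 0.02.

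The chondroitin and dermatan sulfate chain enzymes had 18 of 23 genes tested, 7 higher and 11 lower, with a median of -0.07. At the unadjusted threshold 5 of the 18 were lower and 0 higher. Csgalnact1, which adds the galactosamine that starts a chondroitin chain, read 2.22, 2.26 and 2.17 in controls 1 to 3 and 1.86, 2.02 and 1.95 in knockdown 1 to 3, so the groups did not overlap. The fold was -0.27 ± 0.06 (SE, n = 3 per group; limma adjusted p = 0.196), and it stayed between -0.31 and -0.23 in all 19 alternatives. Chst14, the dermatan sulfotransferase gene, had 0.15 ± 0.08 on its brighter probe and 0.32 ± 0.07 on the other, against the direction of most of the list. B3gat3, which completes the linker between protein and chain, had -0.27 ± 0.07 (limma adjusted p = 0.214) on non-overlapping groups, with -0.34 and -0.13 within slides 1 and 2. With a normexp background the median of this list was close to 0 (-0.0006). It was -0.048 with median centring, -0.016 within slide 2 and -0.076 with array weights. A shift of the list as a whole thus depended on the setting, and the cause was not tested.

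The keratan sulfate chain enzymes had 6 of 7 genes tested, 2 higher and 4 lower, with 1 lower at the unadjusted threshold and a median of -0.09, which was 0.05 with a normexp background. B3gnt2, which extends the lactosamine backbone, had -0.19 ± 0.07 (SE, n = 3 per group; limma adjusted p = 0.305), and -0.22 ± 0.08 on its second probe, with -0.04 within slide 2. B3gnt7, a related enzyme of keratan sulfate, had 0.25 ± 0.13 (limma adjusted p = 0.438), and 0.14 both without control 2 and within slide 2. Sugar nucleotide and sulfate supply had 6 of 8 genes tested, 1 higher and 5 lower, with 1 lower at the unadjusted threshold (median -0.06). Slc35d1, which carries sugar nucleotides for chondroitin sulfate into the endoplasmic reticulum, had -0.26 ± 0.06 (limma adjusted p = 0.202) and -0.18 ± 0.05 on its second probe. Its fold was -0.13 with a normexp background and -0.11 within slide 2. Uxs1, which makes the xylose donor that starts each chain, had -0.09 ± 0.07 (limma adjusted p = 0.640), and -0.03 without control 2.

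Collagen partners had 6 of 10 genes tested, 2 higher and 4 lower, with 1 lower at the unadjusted threshold and a median of -0.02. Col14a1, a fibril-associated collagen to which decorin binds, read 0.93, 1.53 and 1.24 in controls 1 to 3 and 0.61, 0.71 and 0.71 in knockdown 1 to 3. Every knockdown array was below every control. The fold was -0.56 ± 0.15 (SE, n = 3 per group; limma adjusted p = 0.226), and -0.67 ± 0.10 on its second probe. Col1a2 of the main dermal fibril had 0.06 ± 0.07 (limma adjusted p = 0.753), and 0.01 without knockdown 3.

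Growth factor, receptor and microfibril partners had 13 of 14 genes tested, 5 higher and 8 lower (median -0.03), with 2 higher and 3 lower at the unadjusted threshold. Fbn1, the fibrillin gene, read 0.54, 0.50 and 0.50 in controls 1 to 3 and 0.99, 1.15 and 1.12 in knockdown 1 to 3, giving 0.57 ± 0.06 (SE, n = 3 per group; limma adjusted p = 0.190). Ccn4, a matricellular protein gene whose product binds decorin and biglycan, had 0.27 ± 0.05 (limma adjusted p = 0.196) and ranged from 0.25 to 0.31 over 19 alternatives. The 3 lower genes were Tgfb1 (-0.43 ± 0.09), Bmp4 (-0.45 ± 0.11) and Egfr (-0.12 ± 0.04). Their limma adjusted p-values were 0.196, 0.214 and 0.283. Proteinases that cut the family had 8 of 10 genes tested, 3 higher and 5 lower (median -0.03), with 1 lower at the unadjusted threshold. Mmp9, a gelatinase gene, had -1.57 ± 0.32 (limma adjusted p = 0.196) and was well above background on 2 of 3 knockdown arrays, and Mmp13, a collagenase gene, had -1.07 ± 0.45 (limma adjusted p = 0.365) and was so on 1 of 3. With a normexp background these dim probes had -0.17 and 0.04, and Mmp13 had -0.69 without control 2. Both entered the test only through the controls, by a filter that favours lower knockdown values. Mmp9 was the gene of this list counted at the unadjusted threshold, so neither that count nor these folds are free of the filter.

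**Figure D4:**
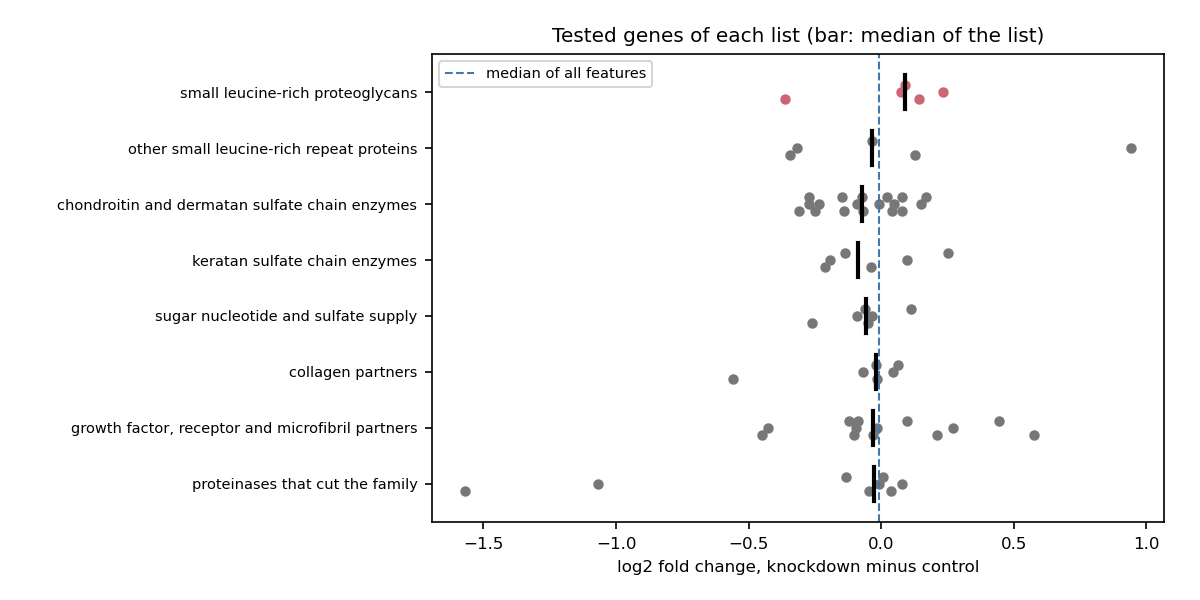
Log2 fold change, knockdown minus control, of every tested gene (points) in the proteoglycan family (red, 5 genes) and in the 7 lists around it (grey), with the median of each list as a black bar and of all 18461 features as a dashed line at -0.01. The family's points lie between -0.36 and 0.23, its median at 0.09, and the medians of the 7 lists lie between -0.09 and -0.02.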

How the data were processed

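Total RNA of 6 rat fibroblast samples was hybridised to one-colour Agilent arrays. The authors deposited scanner output, per the file headers: a processed intensity, background-subtracted and detrended by Agilent Feature Extraction (version 11.0.1.1; the submitters' processing notes name 11.0.0.1), and raw median intensities. No scaling between arrays had been applied. Groups and replicate numbers came from the titles, slides from the scan identifiers. Control spots and outlier spots were left out. The log2 processed signal minus the 75th percentile over the array's 42877 gene spots was averaged per probe. Probes were named by RefSeq accession without version through a GRCr8 gene table (18005 of 30367 matched), and the brightest tested probe stood for a gene. The test was lmFit and eBayes of limma 3.58.1 (R 4.3.3) with Benjamini-Hochberg adjustment at 0.05, over 20773 tested probes for the members and 18461 features for gene lists, and the step was tested on simulated data. The members, lists and alternatives were chosen with earlier results of these data known. Genes named from the lists were the 2 with the smallest p in each, plus the nearest profiles of the member with the widest range. Omd, Chad, Chst14, Tgfb1, Bmp4, Egfr, the marker genes given with folds and the genes of the closing observations were added after values were seen. Alternatives were other scalings, normexp backgrounds (offset 50), filters, probe averaging, an intensity trend, array weights (fitted gene by gene, as limma's default method failed to converge), blocks for replicate number and slide, and leaving out each array.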

Additional observations from a re-analysis of the deposited data

How the results depend on the processing

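Over the 18 alternatives, Ogn and the brighter Bgn probe kept a positive sign, and of the member probes tested 1 passed in 1 alternative: the brighter Bgn probe with array weights (0.13, so 1 member called), where 4255 features passed. With median centring 1 feature passed, and in the other alternatives 0 did. Signs turned for the second Bgn probe with a normexp background (-0.015) and within slide 1 (-0.056), and within slide 2 for Fmod (-0.088), Prelp (-0.012) and Aspn (0.22); the cause was not tested. Leaving out 1 array gave -0.033 to 0.10 for the second Bgn probe, -0.13 to 0.56 for Fmod and -0.65 to -0.036 for Aspn.

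Medians of lists moved by more than the spread between replicates as follows. For the chondroitin and dermatan sulfate enzymes the median was -0.048 with median centring, -0.0006 with a normexp background, -0.0055 with quantile scaling added and -0.016 within slide 2, and -0.091 to -0.051 without 1 array. For the keratan sulfate enzymes it was 0.053 with normexp and -0.14 with a filter on all 6 arrays, and -0.13 to -0.071 without 1 array. For the collagen partners it was -0.058 with normexp, 0.018 with array weights and 0.027 within slide 2, and -0.045 to 0.015 without 1 array. For the growth factor, receptor and microfibril partners it was 0.072 with normexp, -0.086 within slide 1 and 0.089 within slide 2, and -0.074 to 0.0019 without 1 array. For the proteinases it was -0.0033 with median centring, 0.0005 with the filter on all 6 arrays, -0.055 with the mean of probes, -0.051 with array weights and -0.072 within slide 1, and -0.065 to -0.0066 without 1 array. The cause was not tested.

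The labels do not say whether equal replicate numbers mark a pair, and the values here cannot decide it. Deviations from a group's mean sum to 0 within the group, and only number 2 had both its arrays on 1 slide. Across genes, which are not independent, deviations from group means correlated at 0.10, 0.26 and -0.29 for numbers 1, 2 and 3. The slide 2 pair, control 3 with knockdown 1, correlated at 0.44. Control and knockdown pairs within slide 1 ran from -0.09 to 0.26, and pairs across slides from -0.42 to 0.10. The part of the slide in these deviations was not tested. A replicate block left 0 features and 0 members called, and the Ogn fold stayed at 0.14 with a limma adjusted p of 0.423. Its SE was 0.06 with the block and 0.13 without. With the block the SE was also smaller for Aspn and the second Bgn probe. It was larger for Fmod, Prelp and the brighter Bgn probe. With 3 arrays a group, the intervals of Fmod and Aspn span more than a 2-fold range, and Dcn and Lum cannot be compared at this signal.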

Other observations

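The genes nearest to Aspn in shape over the 6 arrays were, in order, Colec12, a scavenger collectin gene, Plppr5, of the lipid phosphatase-related family, and Sf3b4, a splicing factor gene, at distances of 0.08, 0.10 and 0.12 on the log2 scale. In knockdown 2 they stood at -0.91, -0.64 and -0.65 from their own means, next to -0.84 for Aspn. In knockdown 1 they stood at 0.38, 0.29 and 0.18, next to 0.39 for Aspn. Their folds, knockdown minus control, were -0.50, -0.35 and -0.40. These genes were chosen for their likeness to Aspn on the same arrays, and no test of the likeness was made.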
